A study of Micractinium conductrix and Chlorella sorokiniana with 12 samples.

Results

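In the free-living green alga Chlorella sorokiniana, 206 of the 9587 genes in the deposited table had higher transcript levels in cells grown at pH 5.7 than in cells grown at pH 7.6. These genes were chosen by their measured levels in the same libraries that are described here. A gene was taken when its lowest value at pH 5.7 lay above its highest value at pH 7.6, its mean at pH 5.7 was at least 5 FPKM, and that mean was at least 4 times the mean at pH 7.6. FPKM are fragments scaled to gene length and library size, so levels can be compared between genes per unit of length. The separation between the pH groups and the size of the difference are therefore properties of the choice and are given as a description.

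The cells were strain UTEX 1602, grown in a modified freshwater medium and read as whole-cell lysates. The pH 5.7 group held libraries 2, 4 and 57 and the pH 7.6 group held libraries 1, 3 and 76, named by the number in their labels, and pH was the only labelled difference between them. Poly(A)+ RNA was isolated on oligo(dT) beads, which select for polyadenylated transcripts. The series also held 6 libraries of Micractinium conductrix SAG 241.80, an alga obtained from the ciliate Paramecium bursaria, at the same pair of pH values. The labels name 1 strain per species and do not say whether the libraries of a group are separate cultures, so the spread between them may be technical.

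Chlorella sorokiniana is a fast-growing freshwater alga with a chloroplast and a cell wall. As background, the acidity of the medium sets the proton gradient that algal and plant cells maintain with proton-pumping ATPases of the plasma membrane, and many nutrient transporters take up their substrate together with protons. It also sets the form of dissolved inorganic carbon, which is mainly CO2 in acidic and mainly bicarbonate in near-neutral water, and algae take up bicarbonate with transporters and carbonic anhydrases of a carbon-concentrating mechanism. Symbiotic Chlorella-type algae are known to release maltose in acidic medium, which is the trait named in the title of the study. The table pairs its running identifiers (g1, g2 and so on) with no gene name, product, position or sequence. Which of the 206 genes, if any, belong to these processes is therefore not given here, and 2 genes are named by identifier while the others are described by their rank.

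Library medians over all 9587 genes lay between 19.7 and 21.4 FPKM and were thus alike. Libraries 57 and 76 stood apart, because their 50 most abundant genes held 47.2% and 67.4% of all FPKM, against 28.4% to 33.2% in the other 4. Read totals are not in the table. Steps between values under 0.3 FPKM give the factor that divided the fragments of each library, relative to library 1. It was 1.50, 1.31, 0.96, 1.03 and 1.49 in libraries 2, 4, 57, 3 and 76. The scaling between libraries is not given, so how closely this factor followed read depth is not known. These ratios rest on 5 to 15 genes each, and nearly as many genes gave 1.92 for library 57 (4, against 5) and 0.517 for library 3 (10, against 13).

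At pH 5.7 the median level of the 206 genes was 10.2 FPKM in library 2, 24.6 FPKM in library 4 and 13.2 FPKM in library 57. At pH 7.6 it was 0.594 FPKM in library 1, 2.46 FPKM in library 3 and 1.08 FPKM in library 76. The median chosen gene thus lay below the median of all genes in libraries 2 and 57 and above it in library 4. In cells grown at pH 7.6 it was close to the low end of the table. Ranked among all genes of a library, the median chosen gene stood at the 28.1st, 54.1st and 35.8th percentile in libraries 2, 4 and 57. It stood at the 9.5th, 12.1st and 9.8th percentile in libraries 1, 3 and 76. The 206 genes together held 1.1 ± 0.685% of all FPKM at pH 5.7 and 0.0706 ± 0.0525% at pH 7.6 (SD, n = 3 each), with 1.89% in library 4 the highest share and 0.0352% in library 76 the lowest. These shares divide by the sum over all genes. That sum was 766511 to 913124 FPKM at pH 5.7 and 1.06e+06 to 1.66e+06 FPKM at pH 7.6, so the shares also carry this difference. Library 76 had the largest sum, while the lowest median level of the chosen genes was in library 1.

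**Figure D1:**
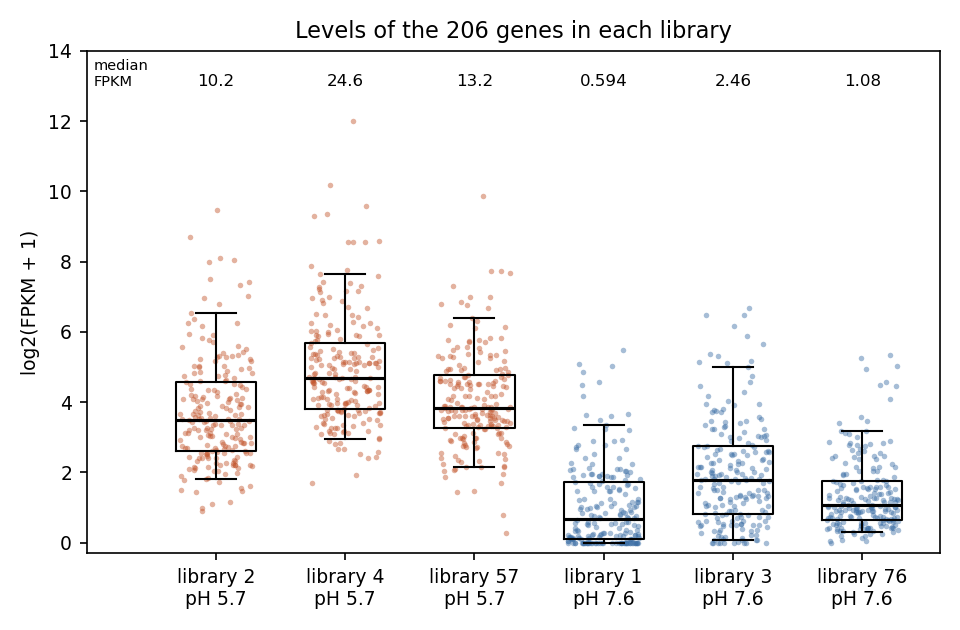
Levels of the 206 chosen genes as log2(FPKM + 1), by library, with pH 5.7 in orange and pH 7.6 in blue; each point is a gene, boxes show quartiles and medians, whiskers span the central 90% of genes, and the median FPKM is written above. Library 4, with a median of 24.6 FPKM, lies highest at pH 5.7, and library 3, with 2.46 FPKM, lies highest at pH 7.6.

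By level at pH 5.7, 53 genes averaged 5 to 10 FPKM, 61 averaged 10 to 20 FPKM, 59 averaged 20 to 50 FPKM, 18 averaged 50 to 100 FPKM and 15 averaged 100 FPKM or more. At pH 7.6, 80 of the 206 averaged under 1 FPKM and 16 averaged 10 FPKM or more. The ratio of the mean at pH 5.7 to the mean at pH 7.6 had a median of 10.4 and quartiles of 6.06 and 22.7. It was at least 8 in 129 genes, at least 16 in 69 genes and at least 64 in 17 genes. The ratio was higher in the low-level classes, with a median of 11.4 for genes of 5 to 10 FPKM and of 7.87 for genes of 100 FPKM or more. By the rule, no chosen gene could be listed at 0 in a pH 5.7 library. In at least 1 pH 7.6 library, 45 of the 206 were listed at 0, 43 of them in library 1, 9 in library 3 and 1 in library 76. None of the 206 was listed at 0 in all 3 pH 7.6 libraries. How many of all genes were listed at 0 is not given here.

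**Figure D2:**
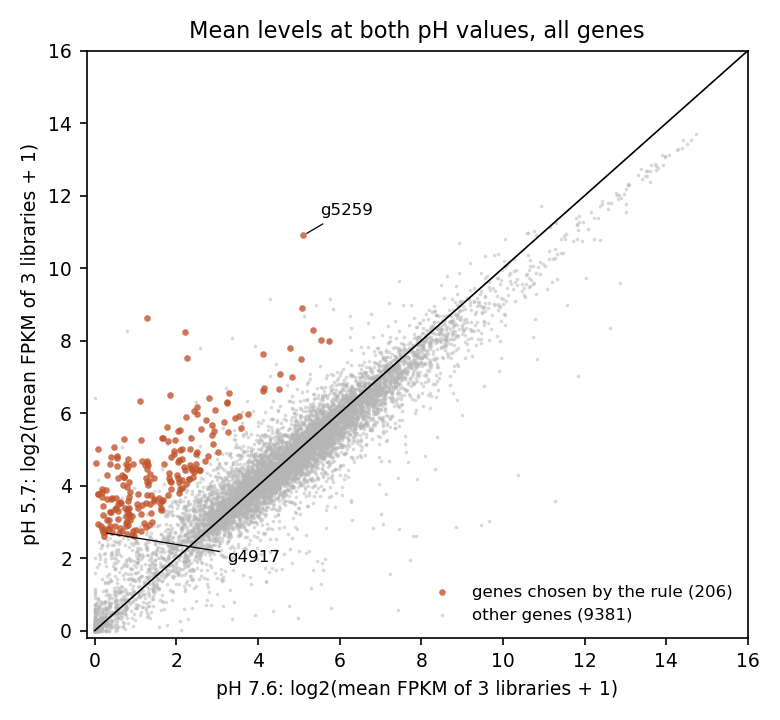
Mean level at pH 5.7 against mean level at pH 7.6 for all genes, as log2(mean FPKM of 3 libraries + 1), with the 206 chosen genes in orange, the 9381 others in grey and a line of equal levels. The chosen genes lie in the upper left by construction, and most of them have a mean under 5 FPKM at pH 7.6 (173 of 206), with g5259 far above the rest at pH 5.7.

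Below, the values of a gene follow the order of libraries 2, 4 and 57 at pH 5.7 and of libraries 1, 3 and 76 at pH 7.6. Gene g5259 was the most abundant of the chosen genes. Its levels were 706, 4095 and 941 FPKM at pH 5.7, against 2.28, 58.4 and 39.7 FPKM at pH 7.6. The lowest acid-grown library was 12.1 times the highest library of pH 7.6, and library 4 was far above the other acid-grown libraries. Read within the pairs that the library numbers form (2 with 1, 4 with 3, 57 with 76), the log2 ratio of FPKM + 1 was 7.75, 6.11 and 4.53.

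Gene g4917 had the widest gap between the pH groups among the chosen genes with no value of 0. Its levels were 3.64, 10.7 and 2.25 FPKM at pH 5.7, against 0.158, 0.154 and 0.106 FPKM at pH 7.6. The lowest acid-grown library was 14.2 times the highest library of pH 7.6. Its values at pH 7.6 all lay under 0.3 FPKM, so this ratio rests on values near the low end of the table. Gene g4917 was also among the least abundant of the 206 at pH 5.7, the 201st by mean level.

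The next most abundant genes differed in how alike their acid-grown libraries were. The second by level had 171, 1164 and 109 FPKM at pH 5.7, against 5.91, 88.2 and 4.36 FPKM at pH 7.6. Its groups nearly touched, since library 57 at pH 5.7 was 1.24 times library 3 at pH 7.6. The third by level had 413, 759 and 2.68 FPKM at pH 5.7, against 1.12, 1.48 and 1.65 FPKM at pH 7.6. It was abundant in libraries 2 and 4 and close to the pH 7.6 level in library 57. The fifth had 70.2, 629 and 205 FPKM at pH 5.7, against a listed 0, 2.86 and 8.12 FPKM at pH 7.6. The sixth had 181, 380 and 211 FPKM at pH 5.7, against 27.7, 71.1 and 37.5 FPKM at pH 7.6. The lowest acid-grown library was 2.55 times the highest library of pH 7.6. The thirteenth by level was among the most even, with 124, 142 and 115 FPKM at pH 5.7, against 17, 33.6 and 31.3 FPKM at pH 7.6.

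The gap between the groups, as the lowest pH 5.7 value over the highest pH 7.6 value, had a median of 2.81 over the 206 genes. It was at least 2 in 135 genes, at least 4 in 64 genes and at least 8 in 29 genes, and it was under 1.5 in 29 genes. The widest gap, 120, belonged to a gene with 6.18, 53.1 and 11.3 FPKM at pH 5.7, against a listed 0 in libraries 1 and 3 and 0.0514 FPKM in library 76 at pH 7.6. The next had 19.8, 33 and 16.4 FPKM at pH 5.7, against a listed 0, 0.53 and 0.384 FPKM at pH 7.6. These genes were at most a trace in cells grown at pH 7.6 and of moderate level in acid-grown cells.

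At the edges of the rule, the smallest ratio of means inside was 4.08, from 12.9 FPKM at pH 5.7 and 3.15 FPKM at pH 7.6. The nearest gene outside had a ratio of 3.9985, from 19.8 FPKM at pH 5.7 and 4.95 FPKM at pH 7.6. The lowest mean at pH 5.7 was 5.15 FPKM inside and 4.92 FPKM just outside. The smallest gap inside was 1.05, from 10.6 FPKM in the lowest pH 5.7 library and 10.1 FPKM in the highest pH 7.6 library. The nearest gene outside had a gap of 0.969, from 24.3 FPKM at pH 5.7 and 25.1 FPKM at pH 7.6. In all, 68 further genes met the floor and the ratio of 4 but overlapped between the groups. Of all 9587 genes, 673, or 7.02%, had every pH 5.7 library above every pH 7.6 library, and this share includes the 206. The opposite rule, with pH 7.6 higher, chose 52 genes of C. sorokiniana. With each library scaled to the same total, the rule chose 318 genes and the opposite rule 28; with quantile normalization they chose 158 and 74. How far the opposite rule moved depended on the library left out. It chose 85 genes without library 4, 148 without library 57, 140 without library 76 and 210 without both 57 and 76. The rule itself chose 177, 280, 277 and 317 there. Without library 1, 2 or 3 the opposite rule chose 67, 56 and 53 genes, and the rule 199, 243 and 293. Without libraries 1 and 2, or 3 and 4, the opposite rule chose 61 and 66, and the rule 237 and 239. The rule as given chose 17 of 9349 genes in M. conductrix, whose genes were not matched to those of C. sorokiniana.

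The chosen genes were unequal among the acid-grown libraries in a shared way. Library 4 was the highest pH 5.7 library in 159 of the 206 genes (77.2%), library 57 in 25 and library 2 in 22. Among the 8270 genes that averaged 5 FPKM or more over the 6 libraries, library 4 was the highest in 35.7%. Library 2 was the lowest pH 5.7 library in 145 of the chosen genes (70.4%), against 27.1% of the 8270. On the log2(FPKM + 1) scale, library 4 exceeded library 2 by a median of 1.31 in the chosen genes and by 0.00 over the 8270. The highest acid-grown library was a median of 3.13 times the lowest in the chosen genes. Over the 8284 genes that averaged 5 FPKM or more at pH 5.7 the median was 1.75 times. A high value in 1 library raises the mean that the rule reads, so part of this spread comes with the choice.

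The libraries grown at pH 7.6 showed the same order for their low levels. Library 3 was the highest pH 7.6 library in 129 of the 206 genes (62.6%), against 28.1% of the 8270. Library 1 was the lowest in 126 (61.2%), against 31.1% of the 8270. Library 3 exceeded library 1 in 178 of the chosen genes, with a median log2 difference of 0.84, against 0.00 over the 8270. Libraries 3 and 4, which the numbers pair, thus both held the highest levels of their pH group in most of the chosen genes. With library totals made equal, library 4 was highest in 158 and library 3 in 154 of the 206 genes. Whether culture state, handling or sequencing moved with this order was not tested, since the labels describe no difference between the libraries of a group.

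**Figure D3:**
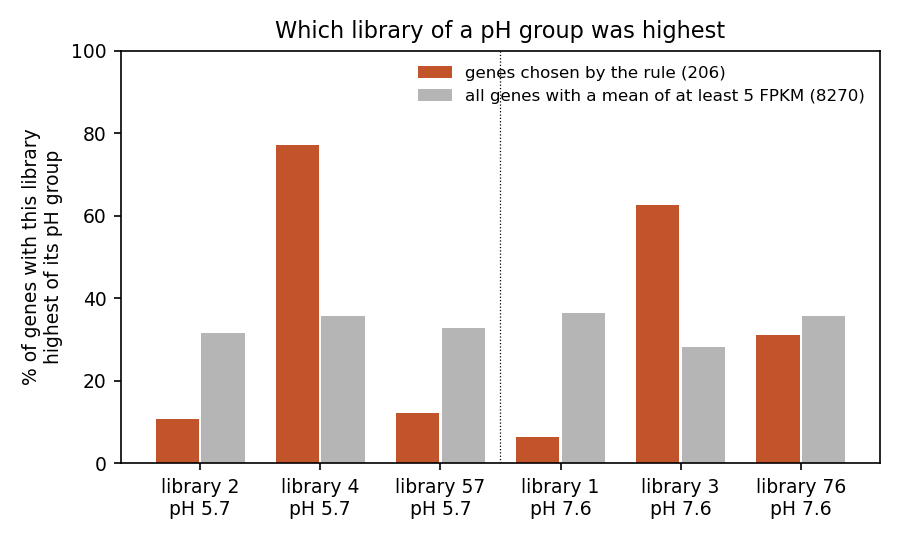
Percent of genes in which each library was the highest of its pH group, for the 206 chosen genes (orange) and the 8270 genes that averaged 5 FPKM or more (grey), on an axis from 0 to 100%. Library 4 led in 77.2% of the chosen genes against 35.7% of the 8270, and library 3 in 62.6% against 28.1%.

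Particular libraries set some genes apart. In 63 of the 206 genes library 4 was over 2 times the higher of the other acid-grown libraries, and the median levels of these 63 were 9.9, 38.1 and 13 FPKM at pH 5.7, against 0.438, 2.33 and 0.853 FPKM at pH 7.6. In 58 genes library 2 was more than 2 times below both other acid-grown libraries, with medians of 4.82, 23.7 and 13.7 FPKM at pH 5.7, against 0.128, 0.73 and 0.895 FPKM at pH 7.6. In 18 genes it was library 57 that lay more than 2 times below both others. Their medians were 41.5, 37.8 and 4.74 FPKM at pH 5.7, against 1.25, 3.28 and 1.64 FPKM at pH 7.6. The third most abundant gene above was one of these 18, whose median gap between the pH groups was 1.38, against 2.81 over all 206.

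Within pairs of libraries, the median log2 ratio of the chosen genes, pH 5.7 over pH 7.6, was 2.51 for libraries 2 and 1, 2.79 for libraries 4 and 3, and 2.71 for libraries 57 and 76. Over the 8284 genes with the same floor at pH 5.7 these medians were -0.03, 0.00 and 0.00. The pairs did not rank the chosen genes alike. Across the 206 genes Spearman's rho between pairs was 0.30 (2/1 with 4/3), 0.19 (2/1 with 57/76) and 0.23 (4/3 with 57/76). Over the 8270 genes these values were 0.60, -0.05 and 0.10. These are descriptions across genes, which share their libraries and are no replicates, and the rule limits the range of the 206.

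To read values that the choice had not used, the rule was applied to 2 pairs of libraries and the resulting genes were then read in the pair left out. Most genes chosen without libraries 2 and 1 were higher at pH 5.7 in that pair too: 227 of 237, or 95.8%, with a median log2 ratio of 2.17. Among all 8296 genes that met the 5 FPKM floor in the choosing libraries, 47.9% were higher, with a median of -0.03. A log2 ratio of at least 1 was met by 201 of the 237 genes, against 13.2% of the 8296. For genes chosen without libraries 4 and 3, 232 of 239, or 97.1%, were higher at pH 5.7 in the pair left out, with a median log2 ratio of 2.39. Of all 8239 genes with the floor, 49.9% were higher there. A log2 ratio of at least 1 was met by 214 of the 239, against 9.55% of the 8239. The ratios of the pairs 2/1 and 4/3 went together over the 8270 genes as well (Spearman's rho 0.60). The shares of all genes with the floor are therefore no matched background for the chosen genes.

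Libraries 57 and 76 followed in part. Without them the rule chose 317 genes, of which 243, or 76.7%, were higher in library 57 than in library 76, against 50.1% of all 8162 genes with the floor. A log2 ratio of at least 1 was met by 177 of the 317, against 11.1% of the 8162, while 124 lay between -1 and 1 and 16 lay at -1 or below. The ratios formed 2 groups, one near 0 and one at about 2 to 4, and the median was 1.64 with quartiles of 0.06 and 2.93. Scaling to equal totals moved all genes of this pair: 92.4% of the then 513 chosen genes were higher in library 57, but so were 89.6% of all genes with the floor, and the median log2 ratio was 1.42 in the chosen genes and 0.81 in all. Each pair left out holds 1 library per pH, so these shares carry no test, and the 3 choices share libraries with each other. Of the 206 genes, 189, 183 and 184 were also in the lists chosen without 2 and 1, without 4 and 3, and without 57 and 76. That is 91.7%, 88.8% and 89.3% of the 206 and 79.7%, 76.6% and 58% of these lists.

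**Figure D4:**
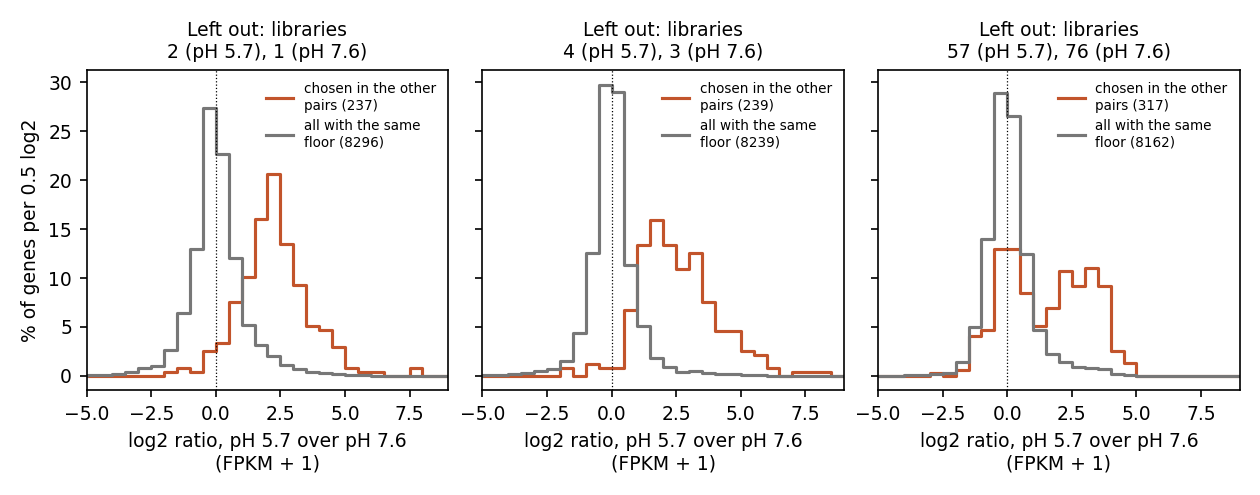
Distribution of the log2 ratio of FPKM + 1, pH 5.7 over pH 7.6, in the pair of libraries left out, as percent of genes per 0.5 log2, for genes chosen in the other pairs (orange) and all genes with the same floor (grey). The chosen genes centre at 2.17 and 2.39 in the pairs 2/1 and 4/3, and split into a group near 0 and a group at about 2 to 4 in the pair 57/76, while all genes centre near 0.

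A model over the whole table gives the background for these levels. All 206 genes were among the 9011 with a mean of at least 1 FPKM that were fitted with limma on log2(FPKM + 1). No gene of the 9011 (0%), and so none of the 206, passed a Benjamini-Hochberg adjusted p of 0.05 without regard to pairs. The smallest adjusted p was 0.0663, and an unadjusted p under 0.05 was reached by 675 genes, 204 of them among the 206. With the pairs as a replicate block, 81 of 9011 genes (0.899%) were called higher at pH 5.7 and 80 of these were among the 206. The rule used this contrast, so nothing is read from these counts. Without libraries 57 and 76 the paired fit called 537 of 9011 genes higher (5.96%), 191 of them among the 206, and 523 lower. It called 0 genes without libraries 1 and 2 or without libraries 3 and 4, where 786 and 538 genes had an unadjusted p under 0.05. For g5259 the log2 fold was 6.13 (SE 1.20 without the block, limma adjusted p = 0.138; SE 0.63 with it, adjusted p = 0.0269). For g4917 it was 2.30 (SE 0.58, limma adjusted p = 0.251; SE 0.50 with the block, adjusted p = 0.139). With pseudocounts of 0.1 and 5 FPKM in place of 1, the log2 fold was 4.26 and 0.953 for g4917. For g5259 these values were 6.30 and 5.68, so the fold of g4917 depended far more on the pseudocount. Both genes were picked by their levels in these same libraries, so nothing is read from their p-values. The median log2 fold of the 206 was 2.65, and that of all genes fitted was -0.01.

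The share of chosen genes varied along the running numbers of the identifiers. Numbers 1 to 500 held 28 of the 206, or 5.6% of those rows. The later 19 ranges of up to 500 numbers held between 0% and 3.4%, and 1.96% of their rows together. The genes of the opposite rule were also more frequent there, at 1.4% of numbers 1 to 500 against 0.542% of the table, so a raised share was not seen in the 206 alone. That 1.4% is only 7 genes. Numbers 3001 to 3500 held 7 genes of the opposite rule as well, and there the chosen genes were 2.8% of rows. Genes of that first range were also more abundant, with a median of 36 FPKM over the 6 libraries, and 10.6% of them had every pH 5.7 library above every pH 7.6 library, against 7.02% of the table. Their median log2 fold was -0.01, so the median gene of the range did not lean to pH 5.7. Of the 206 genes, 26, or 12.6%, had another chosen gene at the next or previous number, as did 4.19% of all rows. The 4.19% does not allow for the higher share of chosen genes in numbers 1 to 500, where some of the 26 lay. The 26 genes formed 10 runs of 2 and 2 runs of 3. The sources used here do not say whether neighbouring numbers are neighbouring genes, and reads shared between related genes cannot be judged from FPKM.

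**Figure D5:**
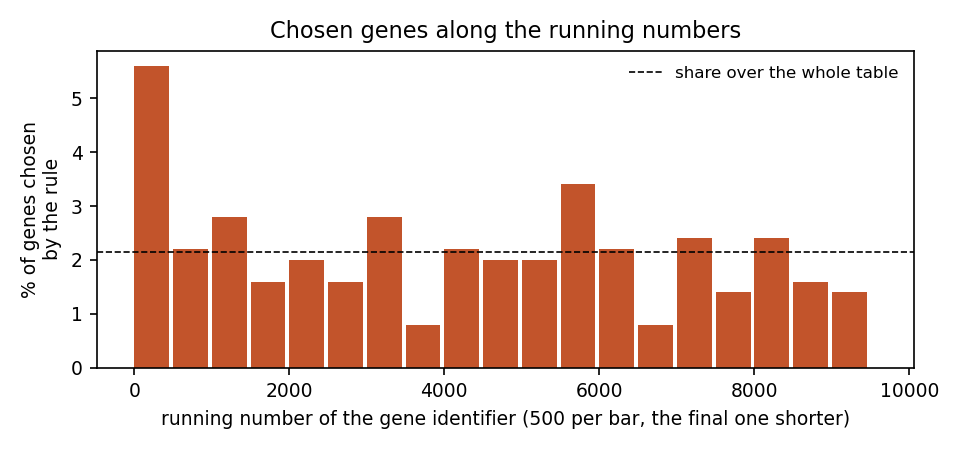
Percent of genes chosen by the rule per 500 running numbers of the identifier, with the share over the whole table (2.15%) as a dashed line. Numbers 1 to 500 hold 5.6%, and the later ranges hold between 0% and 3.4%.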

How the data were processed

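Poly(A)+ RNA of 6 C. sorokiniana libraries was sequenced on an Illumina HiSeq instrument, per the labels' protocols. Cuffnorm, HISAT2, Trimmomatic, FastQC and Picard are listed, without versions, in the submitters' processing notes. The genome build, gene models, strand setting and scaling between libraries are not given in the sources used. The authors deposited FPKM values, 1 column per library, so no count test was used. Only ratios of scaling factors between libraries are known, not read depth, and no counting interval was computed.

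The members, the rule and the comparisons were chosen with earlier results of these data known. The named genes are the member with the highest mean at pH 5.7 and the member with the widest gap between groups and no 0. The limma package 3.58.1 (R 4.3.3) was fitted to log2(FPKM + 1) values (mean-variance trend, mean of at least 1 FPKM, 2-sided, Benjamini-Hochberg over all genes fitted, threshold 0.05), pH 5.7 minus pH 7.6. Fold changes on this scale understate changes of low genes. Other values used Python 3.11.15 with numpy 2.4.6 and pandas 2.3.3. The groups share no number. Pairs were read from the library numbers, and deviations from the group means correlated by 0.395 (2 and 1), 0.585 (4 and 3) and 0.483 (57 and 76) across genes, against -0.568 to 0.0562 for other matches. Deviations cancel out within a group, so a high match lowers the other matches by construction. The labels state no pairing. Alternatives covered pseudocounts, filters, scalings, rule thresholds and left-out libraries.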

Additional observations from a re-analysis of the deposited data

How the results depend on the processing

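The 206 chosen genes became 384 with a ratio of at least 2, 129 with a ratio of at least 8, 318 with equal library totals and 317 without libraries 57 and 76; leaving out 1 library gave 177 to 293, and the other settings stayed within 1.5 times. Requiring a higher value within each pair (replicate block) in place of no overlap gave 246. The share of the rule's genes among those of the rule and its opposite, 79.8%, was 91.9% with equal totals and 68.1% with quantile normalization (both added after seeing the data), and 60.2% to 84.7% with 1 library, or libraries 57 and 76, left out (lowest without 57 and 76). The 0 limma calls without pairs became 81 with the replicate block, 40 with equal totals (median log2 fold over all genes then 0.49) and 1 with quantile normalization; leaving out 1 library gave 0 to 4 (4 without library 57), and the blocked fit without libraries 57 and 76 gave 537. Among the 206 the same settings gave 80, 40, 1, 0 to 1 and 191. The median log2 fold of the 206, 2.65, was 3.55 and 1.57 with pseudocounts of 0.1 and 5 FPKM, 3.04 with equal totals, 2.38 with quantile normalization, 2.51 within the pair of libraries 2 and 1, and 2.31 to 2.88 with 1 library left out. The share of all FPKM at pH 5.7 was 0.705% to 1.32% with 1 library left out. Of genes chosen without libraries 57 and 76, 76.7% were higher in library 57; this was 63.4% with a ratio of at least 2 and 92.4% with equal totals. The mean of at least 5 FPKM left g4917 out of the fit. What caused these changes was not tested. Fits without a pair rest on 4 libraries, and with read depth not known, levels under 1 FPKM cannot be set against counting error.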
